A study of Mus musculus with 18 samples.

Results

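The 32 genes described here are expressed by monocytes and macrophages. They were taken by symbol from a table of transcript levels in mouse colon, which holds 35976 gene symbols, and all 32 were found in it. They were sorted by their known roles into 6 groups: shared macrophage identity (7 genes), Fc receptors and their adaptors (5), the resident state (7), recruited monocytes (5), activation and pattern receptors (5), and lipid handling and repair (3). The table covers 18 libraries from whole colon tissue taken at day 2, with 6 libraries in each of 3 groups. Sham animals served as the group without colitis. Both remaining groups had colitis caused by TNBS, a hapten that sets off acute inflammation of the colon, and were given vehicle or ISM012-042, which the series title calls a gut-restricted PHD inhibitor. PHD enzymes are the prolyl hydroxylases that mark hypoxia-inducible factors for degradation. The labels give no strain, age, sex or dose, and nothing in them states that the samples came from separate mice, so p-values measure only how much these samples differ, which may be technical.

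Macrophages of the healthy colon take up dying cells and bacteria beneath the epithelium and are largely renewed from blood monocytes. Monocytes that leave the blood carry the chemokine receptor CCR2 and high Ly6C, and in the resting gut they lose Ly6C and gain CX3CR1 and scavenger receptors as they mature. During inflammation, monocytes arrive in larger numbers, and many remain in an inflammatory state. In whole tissue, a change in the number of these cells and a change in RNA per cell cannot be told apart. Values are TPM, a transcript level corrected for the length of the gene and for the total of the library. Fold changes are differences of mean log2(TPM + 1) from a limma fit, given as the log2 difference ± its SE with 6 libraries per group, and this scale understates the change of genes at low level. Of the 32 genes, 30 reached 1 TPM in at least 6 libraries and were tested among 14129 genes in all; Siglec1 and Timd4 did not. Chil3 and Clec4e reached 1 TPM in no sham library, Cd163 in 1 and Arg1 in 3, so they passed through the colitis groups.

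The libraries that stood apart in these genes were vehicle replicate 1, vehicle replicate 2 and ISM012-042 replicate 2. They were exactly the 3 highest libraries for 13 of the 32 genes, among them Cd68, Fcgr3, Fcer1g, Chil3, Arg1 and Trem2, and 1 of them was the highest for 24. ISM012-042 replicate 2 alone was the highest for 19 genes, and it was also the highest library for 35% of all genes tested. Vehicle replicate 2 was the highest for 3 of the 32 genes and for 10.64% of all genes tested. For vehicle replicate 1 these values were 2 genes and 4.671%. How often these 3 libraries were exactly the 3 highest over all genes was not computed. The mean log2 level over the 32 genes was 4.62, 4.68 and 5.38 in these 3 libraries, against 2.37 to 3.10 in sham and 2.59 to 4.18 in the other libraries with colitis. Results are therefore also given without the 3 libraries, a choice made after the values were seen. The summed level of 12 neutrophil markers was 986.5 TPM in vehicle replicate 1, 25380 TPM in vehicle replicate 2 and 7063 TPM in ISM012-042 replicate 2. In sham it lay between 33.5 and 720.7 TPM. Among these markers Mpo stayed under 1 TPM in every library. The mitochondrial share of TPM ran from 20.1% to 57.8%, lowest in ISM012-042 replicate 2 and highest in vehicle replicate 5. The distal colon gene Hoxb13 lay between 9.05 and 287.9 TPM in sham, 1.52 and 179.3 TPM in vehicle and 0.329 and 219.1 TPM in ISM012-042. Fits with Hoxb13 as a covariate and without the mitochondrial genes are given below as alternatives. Beyond these, what part neutrophils, mitochondrial share or position along the colon have in the results was not tested.

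**Figure D1:**
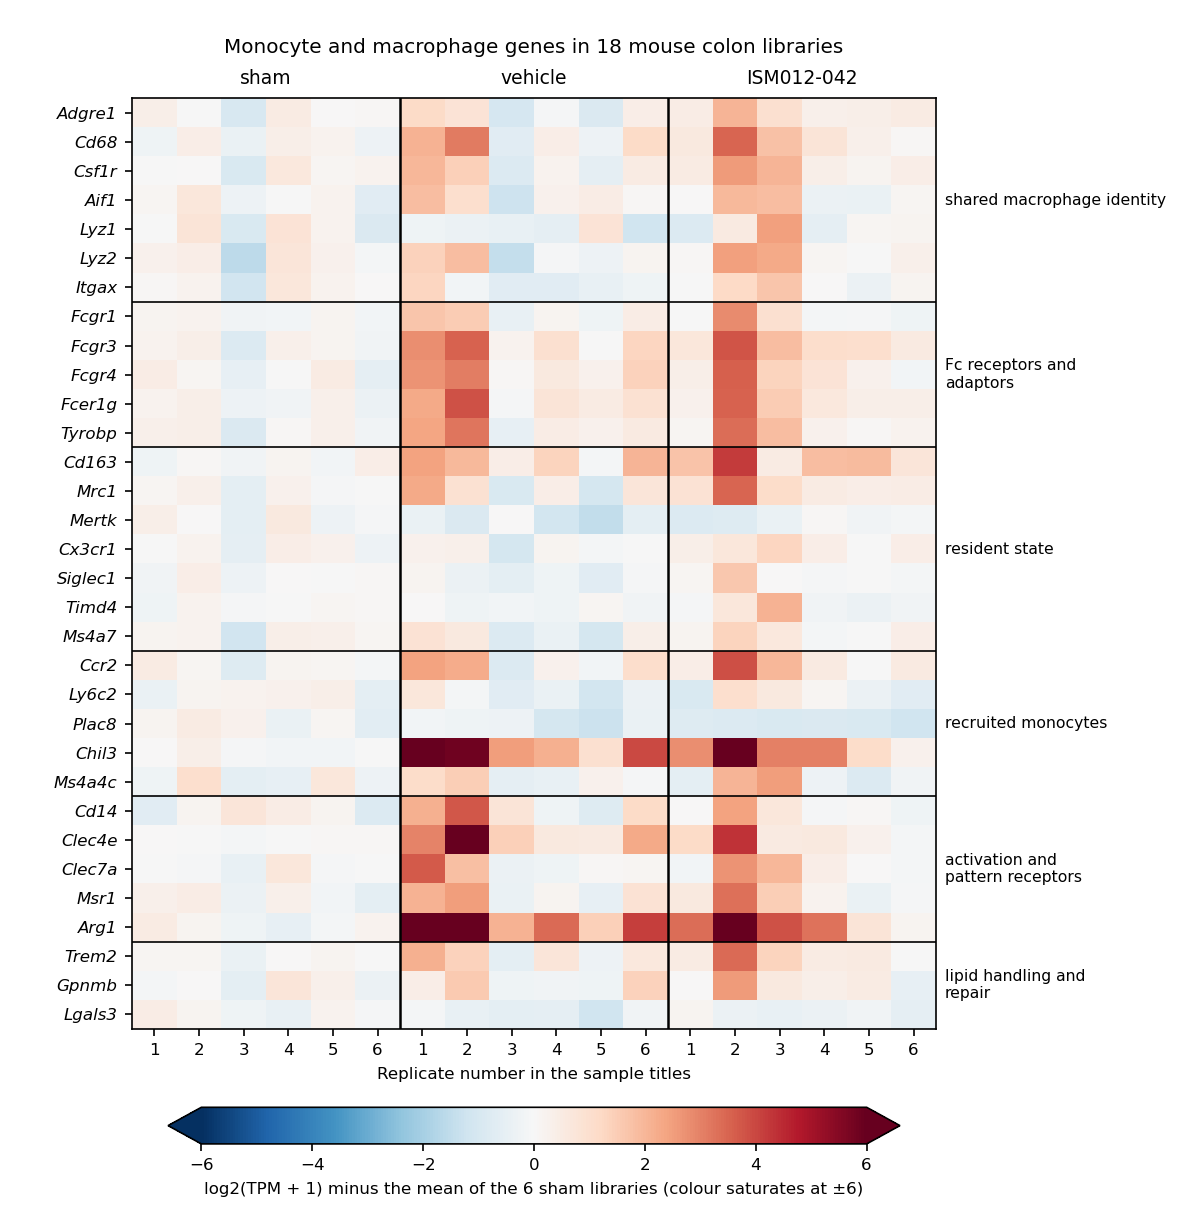
Log2(TPM + 1) of each of the 32 genes (rows, by role) in each library (columns, by group and replicate number), minus the mean of the 6 sham libraries; red is above and blue below that mean, and colour saturates at a difference of 6. Vehicle replicates 1 and 2 and ISM012-042 replicate 2 are red in most rows, and the Chil3 and Arg1 rows are red in nearly all libraries with colitis, while Plac8, Mertk and Lgals3 are pale or blue there.

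Promoters in the RefSeq table, which cover 250 bases before to 50 bases after a transcript start in GRCm38.p6, were found for 25 of the 32 genes, 30 promoters in all. In myeloid cells the ETS factor PU.1 binds purine-rich sites with the core GAGGAA. On either strand, GAGGAA occurred in 16 of the 30 promoters (53.33%), against 28.12% of all 32544 promoters in the table. The longer form GAGGAAGT, which contains the core, occurred in 3 of 30, against 3.113% of all. The C/EBP motif TTGCNNAA occurred in 7 (23.33%), against 10.82% of all. The core of the hypoxia response element, ACGTG, occurred in 3 of 30, against 19.71% of all, in Cd163, Clec4e and Plac8. Plac8 has 2 windows that do not overlap. Its ACGTG lies in chr5:100563047-100563346, which is not the window printed below. Several genes contribute a pair of overlapping windows, so the promoters are not independent, and a match is a string of letters and not a site. Shown first are the promoters of 3 genes that are grouped with recruited monocytes and yet behaved differently in these tissues: Chil3 (chr3:106167515-106167814, minus strand), which rose in colitis, Plac8 (chr5:100572156-100572455, minus strand), which fell under ISM012-042 against sham, and Ly6c2 (chr15:75111888-75112187, minus strand), which passed the threshold in no comparison. Each is written 5′ to 3′ on the gene's strand, with GAGGAA on either strand in capitals, or GAGGAAGT where the longer form is present.
Chil3: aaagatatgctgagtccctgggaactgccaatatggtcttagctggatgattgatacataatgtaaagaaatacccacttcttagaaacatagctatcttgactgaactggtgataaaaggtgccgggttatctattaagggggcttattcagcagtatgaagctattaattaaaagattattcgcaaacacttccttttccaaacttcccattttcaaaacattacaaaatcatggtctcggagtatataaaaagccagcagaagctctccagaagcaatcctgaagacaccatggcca
Plac8: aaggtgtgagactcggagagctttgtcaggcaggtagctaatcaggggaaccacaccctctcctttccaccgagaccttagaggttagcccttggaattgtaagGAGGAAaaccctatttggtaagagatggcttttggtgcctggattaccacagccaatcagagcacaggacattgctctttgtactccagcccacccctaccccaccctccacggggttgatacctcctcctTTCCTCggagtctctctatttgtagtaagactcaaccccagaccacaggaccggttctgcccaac
Ly6c2: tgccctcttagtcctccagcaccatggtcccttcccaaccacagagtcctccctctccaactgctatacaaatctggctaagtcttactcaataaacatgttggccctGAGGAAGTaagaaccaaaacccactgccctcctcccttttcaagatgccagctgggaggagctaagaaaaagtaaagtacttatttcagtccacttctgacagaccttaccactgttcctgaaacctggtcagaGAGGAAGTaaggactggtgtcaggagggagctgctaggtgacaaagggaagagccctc
No GAGGAA was found in the Chil3 window, 2 were found in the printed Plac8 window, and the Ly6c2 window holds GAGGAAGT 2 times. The Plac8 window that is not printed holds no GAGGAA.

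The lysozyme genes Lyz1 and Lyz2 are neighbours on chromosome 10, and their promoters (chr10:117292819-117293118 and chr10:117282223-117282522, GRCm38.p6, both on the minus strand) show how alike the copies are around their starts. The longest run of bases that they share, 86 bases, is in capitals.
Lyz1: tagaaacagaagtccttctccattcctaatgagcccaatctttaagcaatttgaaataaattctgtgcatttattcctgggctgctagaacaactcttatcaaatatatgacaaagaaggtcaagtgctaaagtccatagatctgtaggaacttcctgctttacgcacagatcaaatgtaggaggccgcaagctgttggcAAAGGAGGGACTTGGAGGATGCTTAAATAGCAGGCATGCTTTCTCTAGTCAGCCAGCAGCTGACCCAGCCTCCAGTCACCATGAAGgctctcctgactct
Lyz2: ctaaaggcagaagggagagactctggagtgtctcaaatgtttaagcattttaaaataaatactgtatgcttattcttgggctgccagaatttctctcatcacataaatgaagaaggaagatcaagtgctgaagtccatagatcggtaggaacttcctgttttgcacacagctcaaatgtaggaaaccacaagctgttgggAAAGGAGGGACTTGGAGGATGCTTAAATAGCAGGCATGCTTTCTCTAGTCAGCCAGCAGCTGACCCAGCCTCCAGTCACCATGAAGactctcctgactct
Aligned, the windows were identical at 254 of 310 columns (81.94%). Most of each window lies before the transcript start, and the transcripts themselves were not compared, so how many reads they share is not known here. How shared reads were counted is not given in the sources used here either, so the split between Lyz1 and Lyz2 is uncertain.

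The genes of shared macrophage identity reached 1 TPM in every sham library, except Itgax in sham replicate 3. Lyz2, which encodes the lysozyme of myeloid cells, was the most abundant of them, at 51.8, 188.4 and 261.7 TPM in sham (lowest, median and highest of 6 libraries), 56.7, 162.5 and 571.2 TPM in vehicle and 156.5, 180.8 and 871.8 TPM in ISM012-042. Lyz1, the lysozyme known chiefly from Paneth cells, lay between 2.07 and 37.5 TPM over the 18 libraries and was highest in ISM012-042 replicate 3, where Lyz2 was also high. Cd68, a lysosomal glycoprotein of macrophages, had 4.67, 6.49 and 9.04 TPM in sham, 3.74, 12.4 and 65.0 TPM in vehicle, and 6.93, 11.03 and 85.2 TPM in ISM012-042. Its high values came from a few libraries, and all groups overlapped. Csf1r, the receptor for the macrophage growth factors CSF1 and IL-34 (chromosome 18, 61100598 to 61132149), had 3.78, 8.43 and 12.9 TPM in sham, 4.17, 10.5 and 35.6 TPM in vehicle, and 9.07, 11.3 and 52.8 TPM in ISM012-042. Adgre1, which encodes F4/80, had 1.17, 3.32 and 5.01 TPM in sham, 1.07, 3.73 and 8.25 TPM in vehicle, and 4.14, 4.83 and 16.0 TPM in ISM012-042. For Adgre1 the lowest ISM012-042 library lay near the upper end of sham, but the groups still overlapped. Aif1, which encodes the actin-binding protein IBA1, ran from 2.502 to 30.4 TPM over all libraries, and Itgax, the integrin CD11c of macrophages and dendritic cells, from 0.497 to 9.72 TPM.

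The Fc receptors bind antibody-coated particles, and Fcer1g and Tyrobp encode the adaptor chains through which these and other receptors signal. Fcgr3, a low-affinity IgG receptor (chromosome 1, 171051174 to 171064935), had 4.46, 10.1 and 11.53 TPM in sham, 8.71, 20.6 and 113.3 TPM in vehicle, and 13.2, 18.6 and 133.5 TPM in ISM012-042. All 6 ISM012-042 libraries lay above the highest sham library, as did 4 of the 6 vehicle libraries. Fcer1g had 10.7, 14.3 and 18.2 TPM in sham, 13.2, 26.0 and 212.9 TPM in vehicle, and 17.2, 20.2 and 171.3 TPM in ISM012-042, with 5 libraries of each colitis group above the highest sham library. Fcgr4, another IgG receptor, had 0.998, 2.02 and 3.11 TPM in sham, 2.05, 4.99 and 23.2 TPM in vehicle, and 1.62, 3.45 and 34.5 TPM in ISM012-042. Its groups overlapped, with 4 vehicle and 3 ISM012-042 libraries above sham. Tyrobp ran from 16.4 to 317.5 TPM, and Fcgr1, the high-affinity IgG receptor, from 0.491 to 13.7 TPM, both with their highest value in ISM012-042 replicate 2. Fcgr3 and Fcgr4 are related genes, and reads shared between them may have been split in a way not given in the sources used here.

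Among the genes of the resident state, Cd163 tended to be higher in the libraries with colitis than in sham, and Mertk lower. Mrc1 was higher under ISM012-042 and mixed in vehicle. Cd163, the scavenger receptor for haemoglobin bound to haptoglobin (chromosome 6, 124304656 to 124330527), had 0.519, 0.726 and 1.39 TPM in sham, 0.636, 4.71 and 8.52 TPM in vehicle, and 1.53, 5.18 and 31.9 TPM in ISM012-042. All ISM012-042 libraries lay above sham, and 4 of the 6 vehicle libraries did. Mrc1, the mannose receptor CD206, lay between 2.57 and 5.71 TPM in sham, 1.60 and 25.4 TPM in vehicle, and 6.03 and 60.6 TPM in ISM012-042, where again no library overlapped with sham. In vehicle 4 libraries lay above all of sham and 2 below all of it. The limma difference of vehicle from sham was 0.39 ± 0.54 (adjusted p = 0.766). Mertk, a receptor kinase through which macrophages engulf dying cells (chromosome 2, 128698956 to 128802894), went the other way, with 8.07, 12.4 and 19.2 TPM in sham, 3.86, 7.27 and 12.6 TPM in vehicle, and 6.79, 10.1 and 13.4 TPM in ISM012-042. An antisense gene, Gm14011, overlaps Mertk, and their reads cannot be told apart without strand information. Cx3cr1, the fractalkine receptor, had 1.78, 3.28 and 4.37 TPM in sham, 0.949, 3.24 and 3.92 TPM in vehicle, and 2.98, 4.33 and 8.76 TPM in ISM012-042. Its annotated locus also overlaps several other genes, among them Wdr48 and Gorasp1. Ms4a7, a membrane-spanning protein of macrophages, ran from 1.95 to 15.4 TPM. Siglec1, a sialic acid receptor, lay between 0.102 and 1.37 TPM in sham and vehicle and reached 4.43 TPM in ISM012-042 replicate 2. Timd4, the phosphatidylserine receptor of long-lived macrophages, stayed under 0.6 TPM in sham and vehicle and reached 5.003 TPM in ISM012-042 replicate 3. These last genes were not tested.

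Among the genes of recruited monocytes, Chil3 was nearly absent from sham and Plac8 was abundant there. Chil3, the chitinase-like lectin Ym1 whose promoter is printed above (gene at chromosome 3, 106147554 to 106167564), had 0, 0.0625 and 0.42 TPM in sham, 1.14, 10.8 and 80.3 TPM in vehicle, and 0.308, 7.19 and 77.3 TPM in ISM012-042. Every vehicle library and 5 of the 6 ISM012-042 libraries lay above the highest sham library. Plac8, a small cysteine-rich protein (chromosome 5, 100553725 to 100572245), had the highest median level of the 32 genes, with 1470, 2572 and 3302 TPM in sham, 945.2, 1838 and 2055 TPM in vehicle, and 1007, 1237 and 1375 TPM in ISM012-042. All 6 ISM012-042 libraries lay below the lowest sham library. In sham the mean of Plac8 was 2402 TPM, against 17.2 TPM for Ly6c2 and 2.30 TPM for Ccr2. Within groups Plac8 varied most closely with Lgals3 (r = 0.66), and its median r with the other genes was 0.29. Which cells made the Plac8 RNA, monocytes or others, was not tested. Ccr2, the receptor for the monocyte attractant CCL2, ran from 0.793 to 45.5 TPM, lowest in vehicle replicate 3 and highest in ISM012-042 replicate 2. Ly6c2, the surface antigen that marks blood monocytes in mice, stayed between 7.29 and 34.0 TPM over all libraries, and Ms4a4c between 0.335 and 12.5 TPM. Ly6c2 has a close relative, Ly6c1, with which it may share reads.

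**Figure D2:**
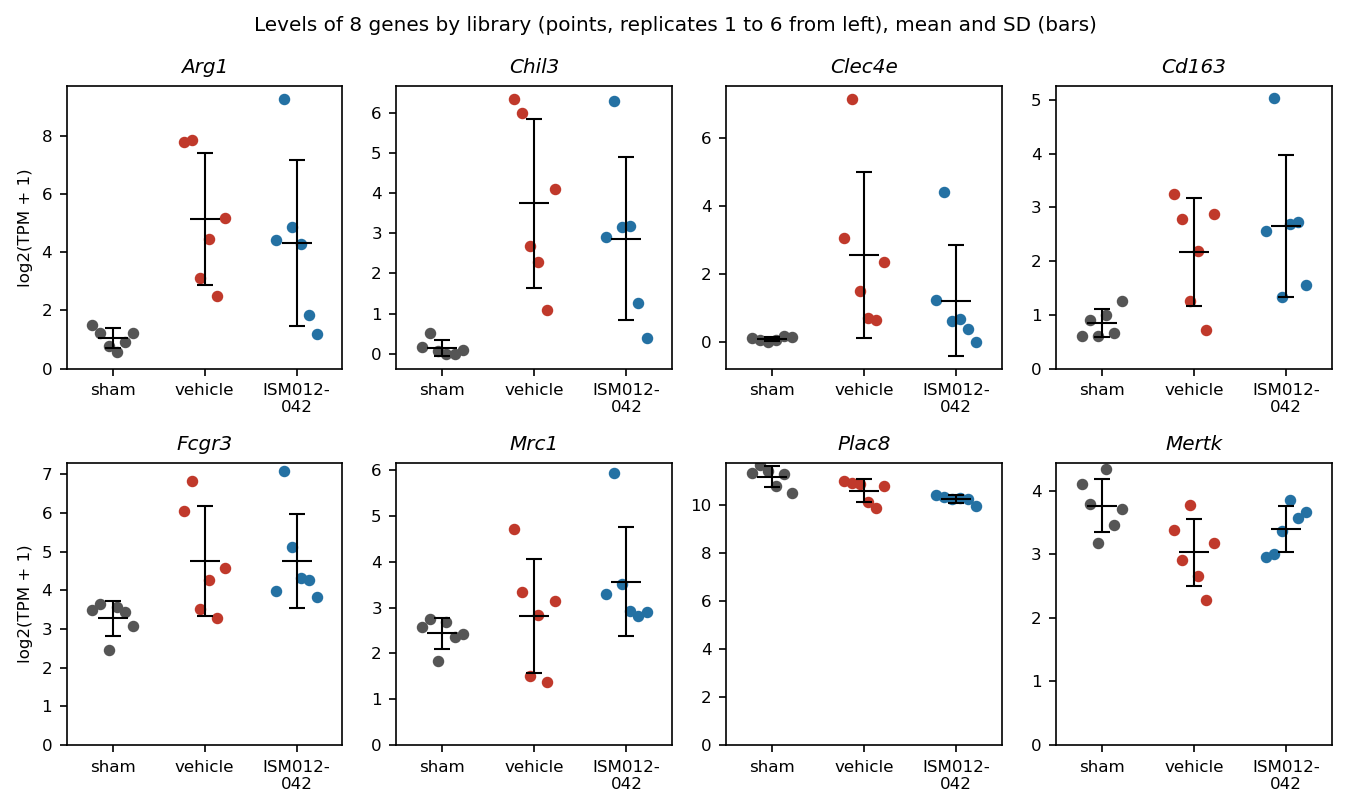
Log2(TPM + 1) of 8 genes, 1 panel each, with a point per library (replicates 1 to 6 from left within a group) and a bar for the group mean and SD (n = 6). Arg1, Chil3 and Clec4e in vehicle lie above all sham points, Plac8 in ISM012-042 lies below all sham points, and the widest spread is in the colitis groups.

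Among the activation genes, Arg1 and Clec4e were low in sham and spread widely in colitis. Arg1, the enzyme arginase 1 that consumes arginine in activated macrophages (chromosome 10, 24915221 to 24927484), had 0.486, 1.11 and 1.86 TPM in sham, 4.62, 28.2 and 232.4 TPM in vehicle, and 1.29, 19.4 and 626.0 TPM in ISM012-042. No vehicle library overlapped with sham, and the highest library exceeded the lowest of all 18 by 1288-fold. Clec4e, the receptor Mincle for mycobacterial lipids and damaged cells (chromosome 6, 123281789 to 123289870), had 0, 0.0655 and 0.138 TPM in sham, 0.563, 2.99 and 142.1 TPM in vehicle, and 0, 0.572 and 20.6 TPM in ISM012-042. Its vehicle libraries also lay above all of sham, while 1 ISM012-042 library was listed at 0. Cd14, the co-receptor for bacterial lipopolysaccharide, ran from 12.4 to 313.2 TPM, Clec7a, the beta-glucan receptor Dectin-1, from 1.21 to 37.6 TPM, and Msr1, a class A scavenger receptor, from 1.54 to 35.7 TPM. Clec4e and Cd14 are also made by neutrophils, and both were highest in vehicle replicate 2, the library with the highest sum of neutrophil markers.

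Lgals3, which encodes galectin-3 and is also made by colon epithelium, was the gene of the lipid and repair group with the highest level, at 739.5, 1056 and 1373 TPM in sham, 444.4, 727.4 and 931.3 TPM in vehicle, and 711.4, 811.3 and 1129 TPM in ISM012-042. Trem2, a lipid receptor that signals through Tyrobp, had 0.881, 1.63 and 1.80 TPM in sham, 0.67, 3.06 and 9.89 TPM in vehicle, and 1.47, 2.60 and 25.1 TPM in ISM012-042. Gpnmb, a glycoprotein of lipid-laden macrophages, ran from 0.412 to 11.49 TPM. Lgals3, Plac8 and Mertk were the only 3 of the 32 genes with their highest value in a sham library.

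Vehicle against sham addresses what TNBS colitis changed. Chil3 rose by 3.61 ± 0.91 on the log2 scale (adjusted p = 0.0306), the mean level being 0.112 ± 0.158 TPM in sham and 28.2 ± 34.2 TPM in vehicle (SD). Arg1 rose by 4.11 ± 1.13 (adjusted p = 0.0477), from 1.11 ± 0.50 to 86.9 ± 108.6 TPM. They were 2 of 30 tested genes called higher, against 0.326% of all genes tested. None of the 30 was called lower by limma, against 4.13% of all genes, and 10 had an unadjusted p under 0.05, against 18.1% of all genes. Over all genes 46 were called higher and 584 lower, so 7.3% of calls were higher; with median-ratio scaling these were 518 and 960 (35%), and without mitochondrial genes 403 and 905 (30.8%), while Chil3 and Arg1 were called under all 3 scalings. Chil3, Arg1 and Clec4e were the 3 whose vehicle libraries all lay above sham, against 0.687% of all genes, and none lay below, against 1.91%. Chil3 and Clec4e reached 1 TPM in no sham library and Arg1 in 3 of 6, so these genes were tested only because of the colitis groups. Their place among the called or separated genes therefore follows in part from the filter. Clec4e differed by 2.48 ± 0.90 (adjusted p = 0.137). The neutrophil markers Retnlg, S100a8 and S100a9 were also called higher in this comparison. The part of neutrophils in the Chil3 call and in the Fc genes was not tested.

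The Fc receptors and adaptors showed positive differences in 5 of 5 genes, with a median of 1.34, but none passed. Fcgr3 differed by 1.47 ± 0.59 (adjusted p = 0.183), Fcer1g by 1.36 ± 0.60 (0.233) and Fcgr4 by 1.34 ± 0.59 (0.236). The activation genes were also positive in 5 of 5, with a median of 1.12, and the genes of shared identity in 5 of 7, with a median of 0.26. Cd68 differed by 0.97 ± 0.61 and Adgre1 by 0.07 ± 0.38. Of the resident genes 2 of 7 were positive: Cd163 differed by 1.34 ± 0.52 (adjusted p = 0.162) and Mertk by -0.74 ± 0.24 (0.0949). Of the recruited monocyte genes 3 of 5 were positive, and of the lipid and repair genes 2 of 3, with Trem2 at 0.67 ± 0.50. The remaining negative values of large size relative to their SE were those of Lgals3, -0.52 ± 0.18 (adjusted p = 0.114), and Plac8, -0.57 ± 0.21 (0.132). Over all 32 genes 22 were positive, and their median was 0.45, against -0.07 for all genes tested, of which 41.3% were positive and 58.7% negative; 8 of the 30 tested genes were negative.

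Without vehicle replicates 1 and 2 and ISM012-042 replicate 2, Chil3 differed by 2.40 ± 0.58 (adjusted p = 0.0201) and Arg1 by 2.77 ± 0.70 (0.0262), so both stayed past the threshold, and Plac8 passed as well, at -0.75 ± 0.22 (0.0448). These libraries were picked for their high levels of the same genes, so lower vehicle values without them follow from the choice. So do the smaller SEs, which were 0.91 for Chil3 and 1.13 for Arg1 with all libraries. The adjusted p-values without the 3 libraries are therefore a description and no further test of the calls. The number of positive genes was then 14 of 32 in place of 22, and their median -0.11, against -0.19 for all genes, of which 28.6% were positive. Fcgr3 was then at 0.63 ± 0.30, Fcer1g at 0.52 ± 0.25 and Cd163 at 0.92 ± 0.37, all above 0, while Adgre1 was at -0.39, Lyz2 at -0.42 and Csf1r at -0.16. Clec4e then no longer passed the filter on low values. Leaving out 1 library at a time, the Chil3 call was lost without sham replicate 1, 2, 4, 5 or 6 or vehicle replicate 2, with adjusted p between 0.0509 and 0.0720, and the Arg1 call without any sham library, vehicle replicate 1, 2, 4 or 6 or ISM012-042 replicate 1, 3 or 4, with adjusted p between 0.0591 and 0.105. With the level of Hoxb13 as a covariate, 7 of the 30 genes were called higher, Fcgr3, Fcgr4, Fcer1g, Cd14, Clec4e, Chil3 and Arg1, where 167 of all 14129 genes were.

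**Figure D3:**
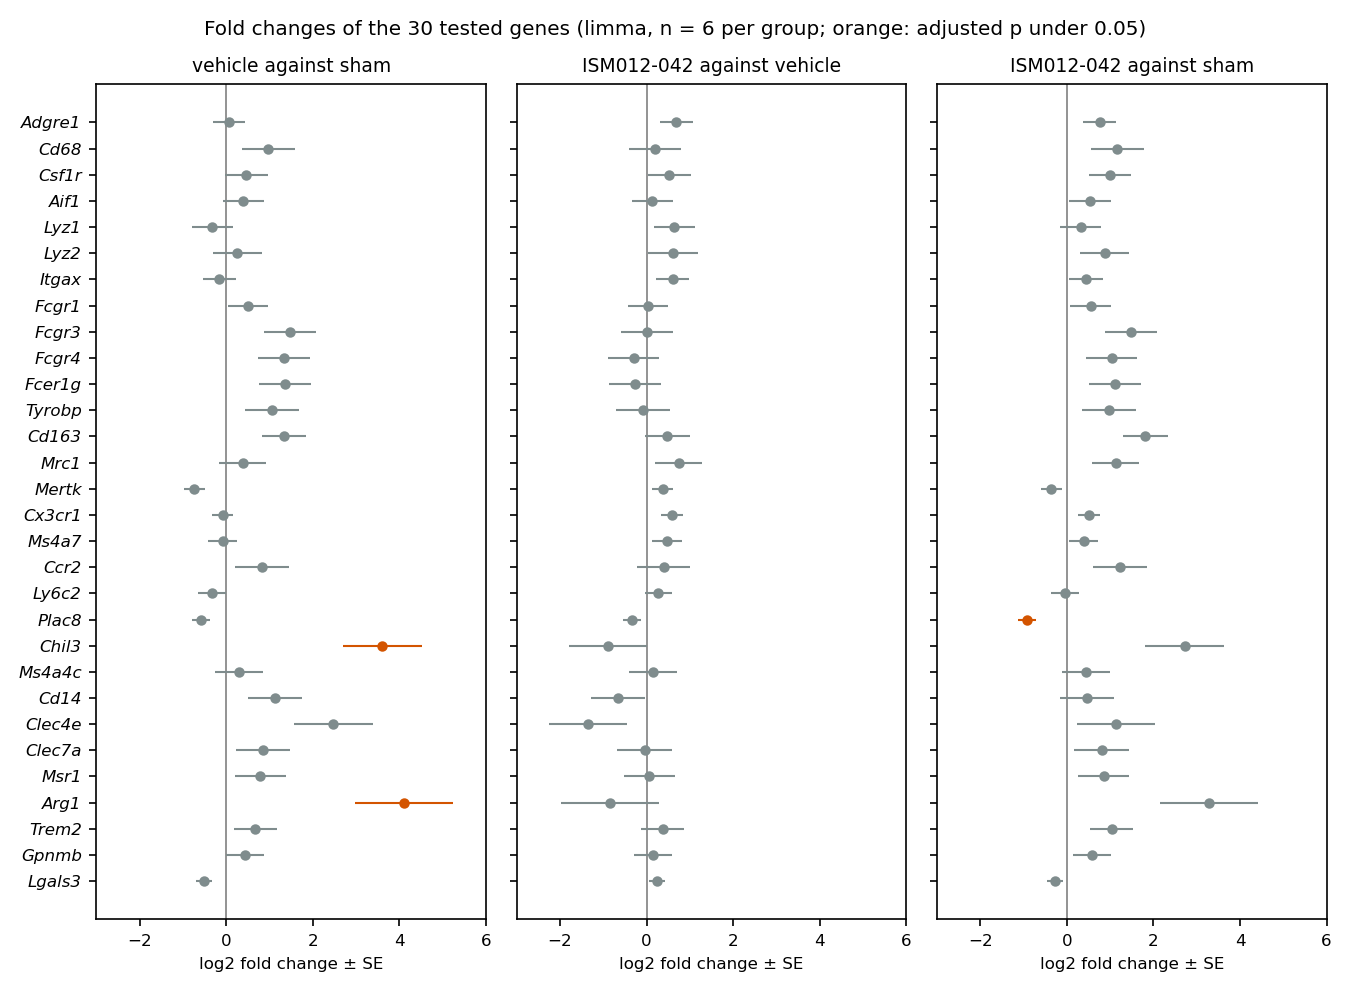
Log2 fold change ± SE of the 30 tested genes (rows, by role) in the 3 comparisons, from the limma fit with 6 libraries per group; orange marks an adjusted p under 0.05. Chil3 and Arg1 are orange on the left and Plac8 on the right, no gene is orange in the middle panel, and Chil3, Arg1 and Clec4e have the widest SE.

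ISM012-042 against vehicle addresses what the compound changed within colitis. No gene passed: limma called 0 of 30 genes higher and 0 lower, against 0.0% of all 14129 genes in each direction. An unadjusted p under 0.05 was reached by 1 of the 30, Cx3cr1, against 19.0% of all genes. Cx3cr1 differed by 0.59 ± 0.25 (adjusted p = 0.246), with 5 of 6 ISM012-042 libraries above the highest vehicle library, from a mean of 2.99 ± 1.11 TPM in vehicle to 4.99 ± 2.01 TPM (SD). No gene separated the groups, against 0.651% of all genes with ISM012-042 above vehicle and 0.0212% below. Genes of shared identity and of the resident state were positive in 7 of 7 each, with medians of 0.60 and 0.48. Adgre1 differed by 0.69 ± 0.38, Mrc1 by 0.74 ± 0.54 and Mertk by 0.37 ± 0.24. Positive values were common among all genes, at 92.1% against 7.91% negative, with a median of 0.30, while 21 of the 30 tested genes were positive and 9 negative. The activation genes were positive in 1 of 5, with a median of -0.65: Clec4e differed by -1.35 ± 0.90, Arg1 by -0.83 ± 1.13 and Cd14 by -0.65 ± 0.62. Chil3 differed by -0.89 ± 0.91, Plac8 by -0.35 ± 0.21 and Trem2 by 0.37 ± 0.50. Fcgr3 differed by 0.01 ± 0.59.

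The scaling matters for directions in this comparison. Median-ratio scaling, which sets the typical gene to no change, moved the median of all genes from 0.30 to 0.00 and the median of the 30 tested genes from 0.17 to -0.09, with 12 of 30 positive in place of 21. Cd68, Aif1, Fcgr1, Fcgr3, Ly6c2, Ms4a4c, Msr1, Gpnmb and Lgals3 turned negative under this scaling. Adgre1, Csf1r, Lyz1, Lyz2, Itgax, Mrc1, Mertk, Cx3cr1 and Ms4a7 stayed positive under every alternative in which they were tested. Plac8, Chil3, Cd14, Clec4e and Arg1 likewise stayed negative. Without the 3 libraries that stood apart, none passed, and 24 of 29 tested genes were positive, with a median of 0.39, against 91.2% of all genes, with a median of 0.35.

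ISM012-042 against sham shows the compound group beside tissue without colitis, and it shares its libraries with the comparisons above. Plac8 fell by 0.92 ± 0.21 on the log2 scale (adjusted p = 0.0325), from 2402 ± 672 TPM in sham to 1231 ± 124 TPM (SD). It was the 1 gene of 30 called lower, against 0.871% of all genes, and 0 were called higher by limma, against 0.545%. An unadjusted p under 0.05 was reached by 5 of 30, against 20.8% of all genes. Of all calls, 77 higher and 123 lower, 38.5% were higher, which became 18.2% (137 and 615) with median-ratio scaling and 64.7% (729 and 398) without mitochondrial genes; Plac8 was called lower under all 3 scalings, and Cd163 was called higher under both alternatives, at 1.66 and 1.98. Fcgr3, Cd163 and Mrc1 were the 3 genes with all ISM012-042 libraries above sham, against 3.8% of all genes, and Plac8 was the 1 below, against 1.05%. Cd163 reached 1 TPM in only 1 sham library, so its place here follows in part from the filter. Cd163 differed by 1.81 ± 0.52 (adjusted p = 0.0869), Fcgr3 by 1.48 ± 0.59 (0.190) and Mrc1 by 1.13 ± 0.54 (0.243). Chil3 differed by 2.72 ± 0.91 (adjusted p = 0.135) and Arg1 by 3.28 ± 1.13 (0.144), each with 5 of 6 libraries above the highest sham library.

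All genes of shared identity (7 of 7), of the Fc group (5 of 5) and of activation (5 of 5) were positive in this comparison, as were 6 of 7 resident, 3 of 5 recruited and 2 of 3 lipid and repair genes. Over all 32 genes 28 were positive, with a median of 0.78, against 0.21 for all genes tested, of which 77.1% were positive and 22.9% negative; 4 of the 30 tested genes were negative. Ccr2 differed by 1.22 ± 0.62, Trem2 by 1.04 ± 0.50 and Csf1r by 0.99 ± 0.49. Without the 3 libraries that stood apart, Plac8 differed by -0.94 ± 0.21 (adjusted p = 0.0333), Cd163 by 1.34 ± 0.35 (0.0642) and Fcgr3 by 1.02 ± 0.28 (0.0751), and 27 of 32 genes were positive, with a median of 0.45 against 0.16 for all genes, of which 73.3% were positive. As the 3 libraries were picked after their values were seen, these adjusted p-values are a description. The Plac8 call was lost without sham replicate 1, 2, 3 or 5 or ISM012-042 replicate 1, 2, 4, 5 or 6, each left out alone, with adjusted p between 0.0530 and 0.0956. With Hoxb13 as a covariate 7 of 30 genes were called higher, Cd68, Csf1r, Fcgr3, Cd163, Ccr2, Chil3 and Arg1, and 1 lower, Plac8, where 1108 of all 14129 genes were called higher and 271 lower. Epithelial markers, which include Epcam and Cdh1, summed to 6827 to 11440 TPM in sham, 4274 to 10820 TPM in vehicle and 7545 to 9082 TPM in ISM012-042, and none of the 8 passed in any comparison. Of these markers 1 of 8 was positive in vehicle against sham, with a median of -0.40, and 2 of 8 in ISM012-042 against sham, with a median of -0.23; their part in the levels of Plac8 and Lgals3 was not tested.

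Within groups, most of the 32 genes varied together from library to library. After subtraction of each group's mean, the median correlation over the 496 pairs of genes was 0.71 over 18 libraries, and 168 pairs exceeded 0.8. The closest pair was Fcer1g and Tyrobp (r = 0.97), and Chil3 was closest to Arg1 (r = 0.97). Mertk was the gene least like the others, with a median r of -0.02, followed by Lyz1 (0.21), Lgals3 (0.23), Plac8 (0.29) and Timd4 (0.31). The pairs share libraries and their scaling, and the 3 libraries that stood apart weigh in them, so these values are a description. The same correlations were not computed for other genes, so they do not show whether such co-variation is particular to these 32.

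**Figure D4:**
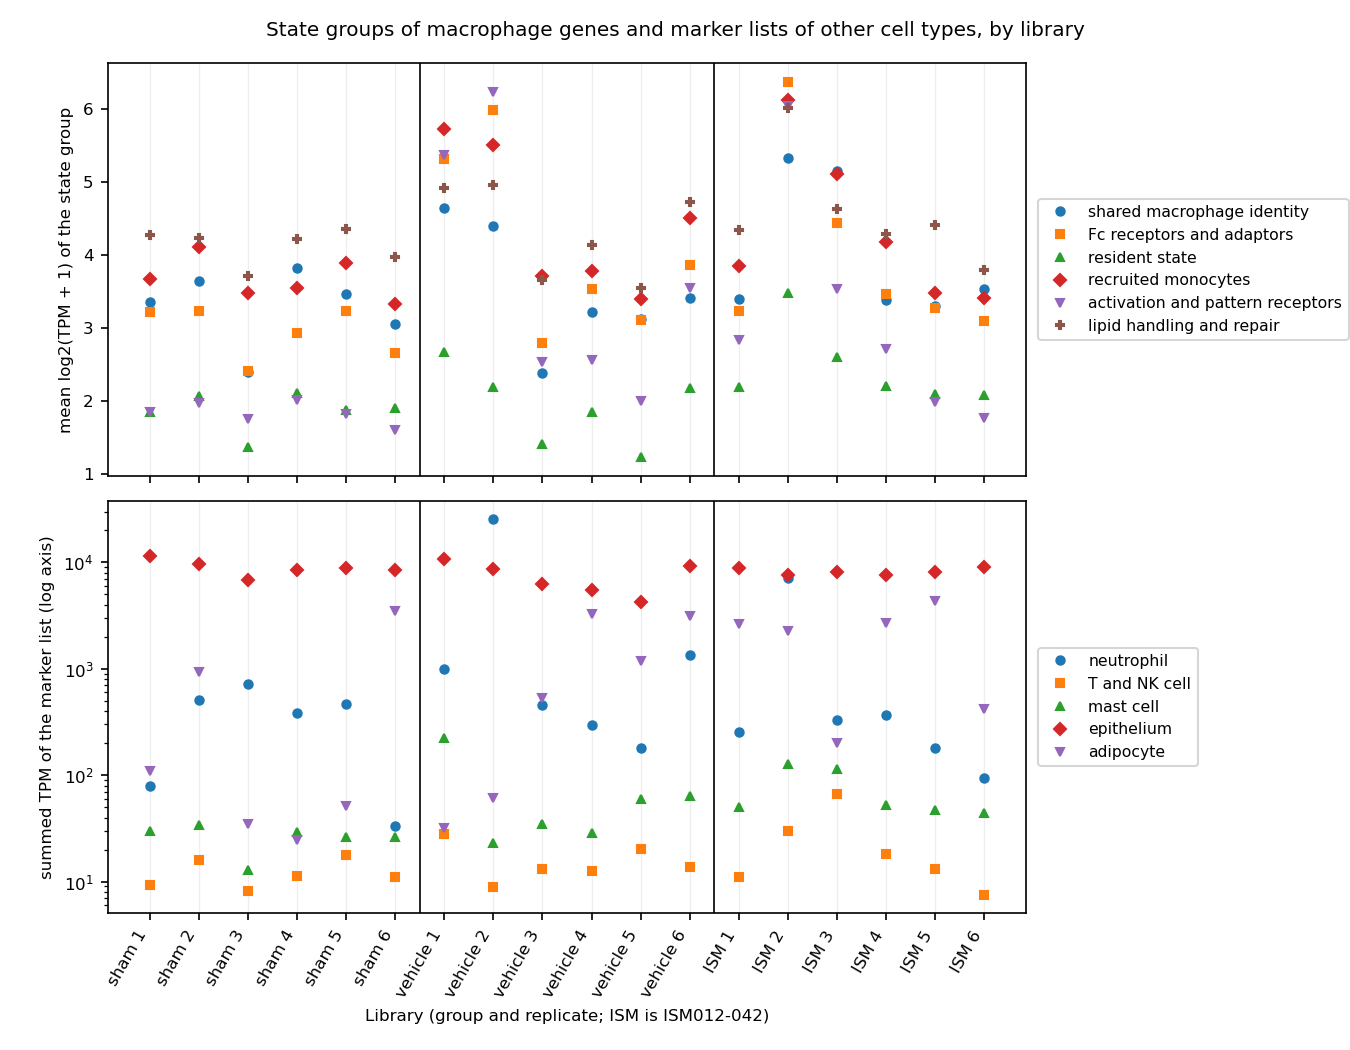
Top: mean log2(TPM + 1) of each of the 6 role groups in each library. Bottom: summed TPM of marker lists of 5 other cell types in the same libraries, on a log axis. Each role group has its highest value in ISM012-042 replicate 2 or, for the activation genes, in vehicle replicate 2, while the neutrophil sum peaks in vehicle replicate 2 and ISM012-042 replicate 2, T and NK cell markers in ISM012-042 replicate 3, and mast cell markers in vehicle replicate 1.

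Other genes of the same programme, 52 in 4 lists, gave 46 tested genes. In vehicle against sham, Klf4, a transcription factor of monocytes that is also expressed in colon epithelium, fell by 0.78 ± 0.18 on the log2 scale (adjusted p = 0.0170), from 310.1 ± 58.0 to 181.7 ± 39.1 TPM (SD), and no other gene of the 4 lists passed in either direction. Of the 14 tested genes of inflammatory monocytes 14 were positive, of 14 other macrophage genes 11, of 9 transcription factors 7, and of 9 recruitment and growth factors 7. Over all genes tested 41.3% were positive, 0.326% were called higher and 4.13% lower. In ISM012-042 against vehicle and in ISM012-042 against sham none of the 46 passed. Of all genes tested, 0.0% were called in the first, and 0.545% higher and 0.871% lower in the second. The smallest unadjusted p in the first belonged to Cd209f, a lectin of resident macrophages, at 0.71 ± 0.30 (adjusted p = 0.246), and Klf4, at 0.39 ± 0.18 (0.252), and in the second to Apoe, the lipid carrier, at 0.94 ± 0.28 (0.0939), and Cd44, a hyaluronan receptor, at 1.23 ± 0.39 (0.117). The recruiting chemokine Ccl2 differed by 1.5 ± 0.81 between vehicle and sham and the factor Spi1, which encodes PU.1, by 0.91 ± 0.59, and neither passed.

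Markers of other cell types also differed between libraries and groups. Of 9 tested neutrophil markers, Retnlg, S100a8 and S100a9 were called higher in vehicle against sham, against 0.326% of all genes tested. None was called in the comparisons with ISM012-042. The summed neutrophil level had a median of 427.0 TPM in sham, 722.5 TPM in vehicle and 291.9 TPM in ISM012-042. Adipocyte markers summed to 24.7 to 3463 TPM in sham (median 81.2), 31.6 to 3301 TPM in vehicle (median 866.1) and 200.6 to 4300 TPM in ISM012-042 (median 2455). None of the 8 adipocyte markers passed, but 8 of 8 were positive in each comparison, with a median of 1.15 in vehicle against sham, 1.36 in ISM012-042 against vehicle and 2.82 in ISM012-042 against sham. In the same order, 41.3%, 92.1% and 77.1% of all genes tested were positive. In ISM012-042 against sham, the sums of 3 further lists did not overlap between the groups, as for Fcgr3, Cd163 and Mrc1: mast cell markers reached at most 34.1 TPM in sham and at least 43.9 TPM in ISM012-042, endothelial markers 35.9 and 40.3 TPM, and mesothelial markers 23.2 and 26.0 TPM. T and NK cell markers were highest in ISM012-042 replicate 3 at 66.5 TPM, as were markers of dendritic cells at 25.0 TPM and of B and plasma cells at 876.1 TPM, in the library where Lyz1, Itgax, Cx3cr1, Timd4 and Ms4a4c also had their highest values. The part of these cells in the results was not tested.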

How the data were processed

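Per the labels' protocols, colon samples were lysed in TRI Reagent, total RNA was recovered with an RNeasy kit, and cDNA was made with the FastKing kit. The authors deposited TPM for 35976 symbols in 18 libraries, each summing to 1000000; the submitters' processing notes name DRAGEN 4.0.3 and mm10. For the counting, the annotation and the use of strand, nothing is given in the sources used here. TPM keeps no record of depth, so no counting error can be given, and an abundant class of transcripts lowers all other values. Gene coordinates are from GENCODE for GRCm38, 1-based.

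Groups and replicate numbers come from the sample titles. Log2(TPM + 1) of genes with at least 1 TPM in at least 6 libraries (14129) was fitted over all 18 libraries together with limma 3.58.1 (R 4.3.3), using trend and robust empirical Bayes, no covariate, Benjamini-Hochberg adjustment over all genes and a threshold of 0.05. Summaries used Python 3.11.15 and pandas 2.3.3. The analysis was tested on simulated data. The members, role groups and lists were chosen with earlier results of these data known. The lowest, median and highest values of each group are given for members past the threshold. In each role group the same holds for the 2 members of smallest unadjusted p in vehicle against sham. It also holds for the 1 of smallest unadjusted p in ISM012-042 against vehicle. Of the other programme genes, those that pass or the 2 of smallest p are named. Ccl2, Spi1 and further examples in the text fall outside that rule. Alternatives were pseudocounts of 0.1 and 5, no filter, a minimum of 5 TPM, median-ratio scaling, leaving out the 13 mitochondrial genes, only the groups compared, a replicate block, plain empirical Bayes, Hoxb13 as a covariate, and leaving out each library or the pair vehicle 2 and ISM012-042 2; the removal of vehicle 1, vehicle 2 and ISM012-042 2 was added after the data had been seen.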

Additional observations from a re-analysis of the deposited data

Results flagged for a closer look

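Within each group of 6 libraries, the highest or lowest value of a gene was singled out when its gap to the next, on the log2 scale, took up more of the group's range than Dixon's critical value for 6 libraries allows. This was met 14 times in 96 groups tested, where a single test meets it by chance about 1 time in 20. The genes vary together within groups, so the 96 tests are not independent and their count cannot be set against that rate. Of the 14, 5 were low values of sham replicate 3 and 5 were high values of ISM012-042 replicate 2. ISM012-042 replicate 2 was the high library for Mrc1 (60.6 TPM, next 10.5), Siglec1 (4.43, next 0.907), Cd14 (123.1, next 36.5), Clec4e (20.6, next 1.35) and Gpnmb (11.49, next 2.19). Vehicle replicate 2 was high for Clec4e (142.1 TPM, next 7.36) and vehicle replicate 1 for Itgax (7.19, next 1.97). Sham replicate 3 was the low library for Adgre1 (1.17 TPM, next 3.2), Lyz2 (51.8, next 145.6), Itgax (0.497, next 2.39), Ms4a7 (1.95, next 6.08) and Trem2 (0.881, next 1.47), and it had the highest mitochondrial share of the sham libraries, 42.6%. Vehicle replicate 3 was low for Cx3cr1 (0.949 TPM, next 2.71). Sham replicate 2 was high for Chil3, at 0.42 TPM with the next at 0.128. The causes were not tested.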

How the results depend on the processing

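Over 2636 recomputed single-gene differences in 90 gene and comparison pairs, 2481 kept direction and side of the threshold, 33 dropped under it, 19 passed it and 103 changed sign, none of them between called values; 60 pairs never changed sign. Where no cause is given, the cause was not tested. In vehicle against sham the genes called higher, 2 of the set and 46 of all, became 0 and 29 with a pseudocount of 5, 1 and 29 with no filter, 1 of the set with a minimum of 5 TPM, 7 and 167 with Hoxb13 as a covariate, and over all genes 518 with median-ratio scaling, 403 without mitochondrial genes, 84 without the pair vehicle 2 and ISM012-042 2, and 148 without vehicle 1, vehicle 2 and ISM012-042 2 (the trio). Those called lower, 0 and 584, became 1 and 1131 without the trio, and over all genes 960 with median-ratio scaling, 905 without mitochondrial genes and 327 with only the groups compared. Leaving out 1 library at a time gave 0 to 3 of the set and 20 to 110 of all genes higher, and 314 to 881 of all lower. ISM012-042 against vehicle gave 0 calls under every alternative. In ISM012-042 against sham the calls higher, 0 and 77, became 1 of the set with a pseudocount of 0.1 (Chil3), 1 and 137 with median-ratio scaling, 2 and 729 without mitochondrial genes, 7 and 1108 with Hoxb13, and over all genes 50 with no filter and 480 with only the groups compared. Those lower, 1 and 123, became 0 of the set with no filter, and over all genes 615 with median-ratio scaling, 398 without mitochondrial genes, 232 with only the groups compared and 271 with Hoxb13. Leaving out 1 library gave 0 to 1 of the set lower, and 14 to 161 of all higher and 62 to 167 lower. With the replicate number as a block, 2 of the set stayed higher in vehicle against sham and 1 lower in ISM012-042 against sham, where the calls over all genes became 38 higher and 71 lower; same-numbered libraries had correlations of deviations from -0.38 to 0.61, so the numbers did not show a pairing.

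The signs that changed were these. In vehicle against sham without the trio, Adgre1 was at -0.39, Csf1r at -0.16, Aif1 at -0.11, Lyz2 at -0.42, Fcgr1 at -0.030, Mrc1 at -0.22, Ms4a4c at -0.21 and Clec7a at -0.11; without the pair, Adgre1 was at -0.087 and Lyz2 at -0.061; with Hoxb13, Itgax was at 0.20, Cx3cr1 at 0.14, Ms4a7 at 0.23 and Ly6c2 at 0.060, and with median-ratio scaling Ms4a7 was at 0.00085. In ISM012-042 against vehicle with median-ratio scaling, Cd68 was at -0.10, Aif1 at -0.17, Fcgr1 at -0.15, Fcgr3 at -0.31, Ly6c2 at -0.038, Ms4a4c at -0.078, Msr1 at -0.20, Gpnmb at -0.031 and Lgals3 at -0.099. With Hoxb13, Cd68 was at -0.059, Aif1 at -0.056, Fcgr1 at -0.13, Fcgr3 at -0.20, Ms4a4c at -0.071 and Msr1 at -0.18. Without mitochondrial genes Aif1 was at -0.0088, Fcgr1 at -0.059, Fcgr3 at -0.14 and Msr1 at -0.055, and with a pseudocount of 5 Fcgr3 was at -0.014. Without the pair Aif1 was at -0.029, Fcgr1 at -0.22, Fcgr3 at -0.035, Msr1 at -0.081 and Gpnmb at -0.020, and without the trio Fcer1g was at 0.11, Tyrobp at 0.31 and Clec7a at 0.53. In ISM012-042 against sham Ly6c2 was at 0.19 with Hoxb13. Leaving out 1 library gave ranges that cross 0 in vehicle against sham for Adgre1 (-0.15 to 0.28), Lyz2 (-0.061 to 0.60), Cx3cr1 (-0.19 to 0.11) and Ms4a7 (-0.31 to 0.11). In ISM012-042 against vehicle these were Cd68 (-0.27 to 0.63), Aif1 (-0.19 to 0.42), Fcgr1 (-0.42 to 0.27), Fcgr3 (-0.45 to 0.43), Fcgr4 (-0.81 to 0.043), Fcer1g (-0.74 to 0.24), Tyrobp (-0.55 to 0.35), Cd163 (-0.00047 to 0.74), Ccr2 (-0.13 to 0.71), Ms4a4c (-0.27 to 0.40), Clec7a (-0.42 to 0.52), Msr1 (-0.42 to 0.41), Trem2 (-0.095 to 0.67) and Gpnmb (-0.25 to 0.38). In ISM012-042 against sham they were Lyz1 (-0.11 to 0.55) and Ly6c2 (-0.25 to 0.13). Depth is unknown, so levels under about 1 TPM, such as those of Siglec1, Timd4 and sham Clec4e, carry an error that cannot be stated.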
